A study of Mus musculus with 15 samples.

Results

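The interferon regulatory factor (IRF) family was followed through mouse heart and liver allografts on 15 single-colour arrays. The members were taken by name, as every probe whose systematic name in the files matched Irf1 to Irf5 or Irf7 to Irf9. This gave 8 genes of 32301 names and 11 probes of 41174. Of these names 18217 were gene symbols and the rest were systematic names without a matching symbol. Irf1, Irf8 and Irf9 had 2 probes each and the other members had 1. All 11 probes had a value on every array, and none was left out for a low value.

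The arrays fell into 5 groups of 3. Heart allografts were taken at postoperative day 5 (POD5) from male CBA (H-2k) recipients of vascularized, heterotopic abdominal grafts from male C57BL/10 (B10, H-2b) donors. Liver allografts were taken at POD5 or POD8 from male B10.D2 (D2, H-2d) recipients of orthotopic grafts from male B10.BR (BR, H-2k) donors. The remaining groups were 3 heart controls and 3 liver controls, which the labels and methods call normal tissue and the results and legends call isografts or syngeneic, and whose deposited data carry the abbreviation Syn in their names. Their kind is therefore not settled, so that each difference from control is against tissue that may or may not have been grafted, and their strain is not given in the sources used here. Age, and any drug given to the recipients, are likewise not given in the sources used here. Since donor and recipient strains differ between the organs, organ and strain combination cannot be told apart, and whole tissue was measured, so that more cells of a type and more RNA per cell cannot be told apart either.

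IRFs share a DNA-binding domain that recognises GAAA repeats, and they carry interferon and innate immune signals to target promoters. Interferon gamma signals act on gamma-activated sites (GAS) and induce Irf1 and Irf8. Type I interferons assemble the complex ISGF3, which contains IRF9, binds the interferon-stimulated response element (ISRE) and induces Irf7. IRF3, IRF5 and IRF7 are activated by kinases downstream of pattern recognition receptors, IRF4 and IRF8 act mostly in lymphoid and myeloid cells, often on Ets-IRF composite elements (EICE) together with PU.1, and IRF2 competes with IRF1 for the same sites.

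All 8 members had a promoter sequence in the RefSeq table (build GRCm38.p6), 11 sequences in all. The 250 bases before each annotated start were searched on both strands for 3 motifs, each a pair of half-sites with free bases (N) between them. GAS was TTC and GAA with 3 free bases (a palindrome), ISRE was GAAA and GAAA with 2 free bases, and EICE was GGAA and GAAA with 2 free bases. Of 32851 such windows over all genes, 7.02% held the GAS letters, 2.98% the ISRE letters and 2.3% the EICE letters. Irf1, Irf8 and Irf2 had a match in a window and the other 5 members had none. This says only that these letters are not in those windows. The window of Irf5 (chr6:29526375-29526624) lay inside the gene, which starts at 29526130. That of Irf7 (chr7:141266425-141266674, minus strand) lay partly inside the gene, whose outer end is 141266499. The bases before the outer gene start were therefore not searched for Irf5 and only partly for Irf7. The 3 windows with a match are printed 5′ to 3′ with the matched letters in capitals, since Irf1 and Irf8 had the highest log2 differences of the family in the heart and Irf2 did not pass the test in any comparison of allografts with controls. They are chr11:53769764-53770013 for Irf1, chr8:120736108-120736357 for Irf8 and chr8:46739495-46739744 for Irf2, each on the plus strand.
Irf1: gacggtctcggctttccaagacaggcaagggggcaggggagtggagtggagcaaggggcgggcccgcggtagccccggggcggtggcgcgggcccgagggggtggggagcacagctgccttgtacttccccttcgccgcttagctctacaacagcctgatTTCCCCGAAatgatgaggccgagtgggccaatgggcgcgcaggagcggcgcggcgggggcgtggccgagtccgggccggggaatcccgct
Irf8: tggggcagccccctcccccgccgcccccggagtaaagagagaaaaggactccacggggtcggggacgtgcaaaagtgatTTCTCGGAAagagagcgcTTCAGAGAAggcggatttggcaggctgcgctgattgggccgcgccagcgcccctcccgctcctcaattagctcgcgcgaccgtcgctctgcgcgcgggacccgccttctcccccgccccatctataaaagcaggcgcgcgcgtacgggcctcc
Irf2: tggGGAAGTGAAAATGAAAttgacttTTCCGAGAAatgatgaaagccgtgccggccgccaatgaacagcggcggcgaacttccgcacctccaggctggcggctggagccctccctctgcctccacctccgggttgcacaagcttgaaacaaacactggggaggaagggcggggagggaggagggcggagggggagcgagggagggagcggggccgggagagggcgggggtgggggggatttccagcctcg
The GAS match of Irf1 began 90 bases upstream of the start. Irf8 held 2 GAS matches, beginning 171 and 153 bases upstream. Irf2 held 1 match to each of the 3 motifs, with the EICE match at 247 and the ISRE match at 241 bases upstream overlapping each other, and the GAS match at 224. A match is a description of letters and not of binding, which these arrays did not measure.

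Tissue identity followed the labels. The summed normalized signal of 10 cardiomyocyte markers was 840600 to 1474000 in the heart arrays and 645.7 to 1868 in the liver arrays, and that of 8 hepatocyte markers was 734500 to 869500 in the liver arrays and 83.48 to 750.6 in the heart arrays. Alb, Apoa1, Ttr and Hnf4a were not well above background on any heart array. The share of probes well above background was 52.5% to 70.5% per array, and the 75th percentile of the processed signal was 92.14 to 225.8 in liver controls and 338 to 1247 in the other arrays. Each array slide was scanned once. The 3 heart allografts and liver POD5 allograft 3 shared a slide and the 3 heart controls were together on a different slide, which leaves slide and group in the heart confounded, and the 2 cannot be told apart. Liver POD5 allografts shared no slide with liver controls or with POD8 allografts, and heart controls shared none with liver controls. In those comparisons too a random block for slide cannot separate slide from group.

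In the heart at POD5, 6 of 8 IRF genes rose and none fell. Over all 41025 probes tested, 15.6% were called higher and 16.4% lower, or 32% in all, at an adjusted p under 0.05. The rises were largest for Irf1 at 18.5-fold and Irf8 at 14.3-fold, followed by Irf4, Irf7 and Irf5, and the smallest called rise was that of Irf9 at 1.45-fold. The median log2 difference of the 8 genes was 2.38, against 0.02 over all probes. The allograft and control arrays did not overlap for 7 of 8 genes, each higher, beside 54.6% of all probes without overlap and 29.1% without overlap and higher.

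**Figure D1:**
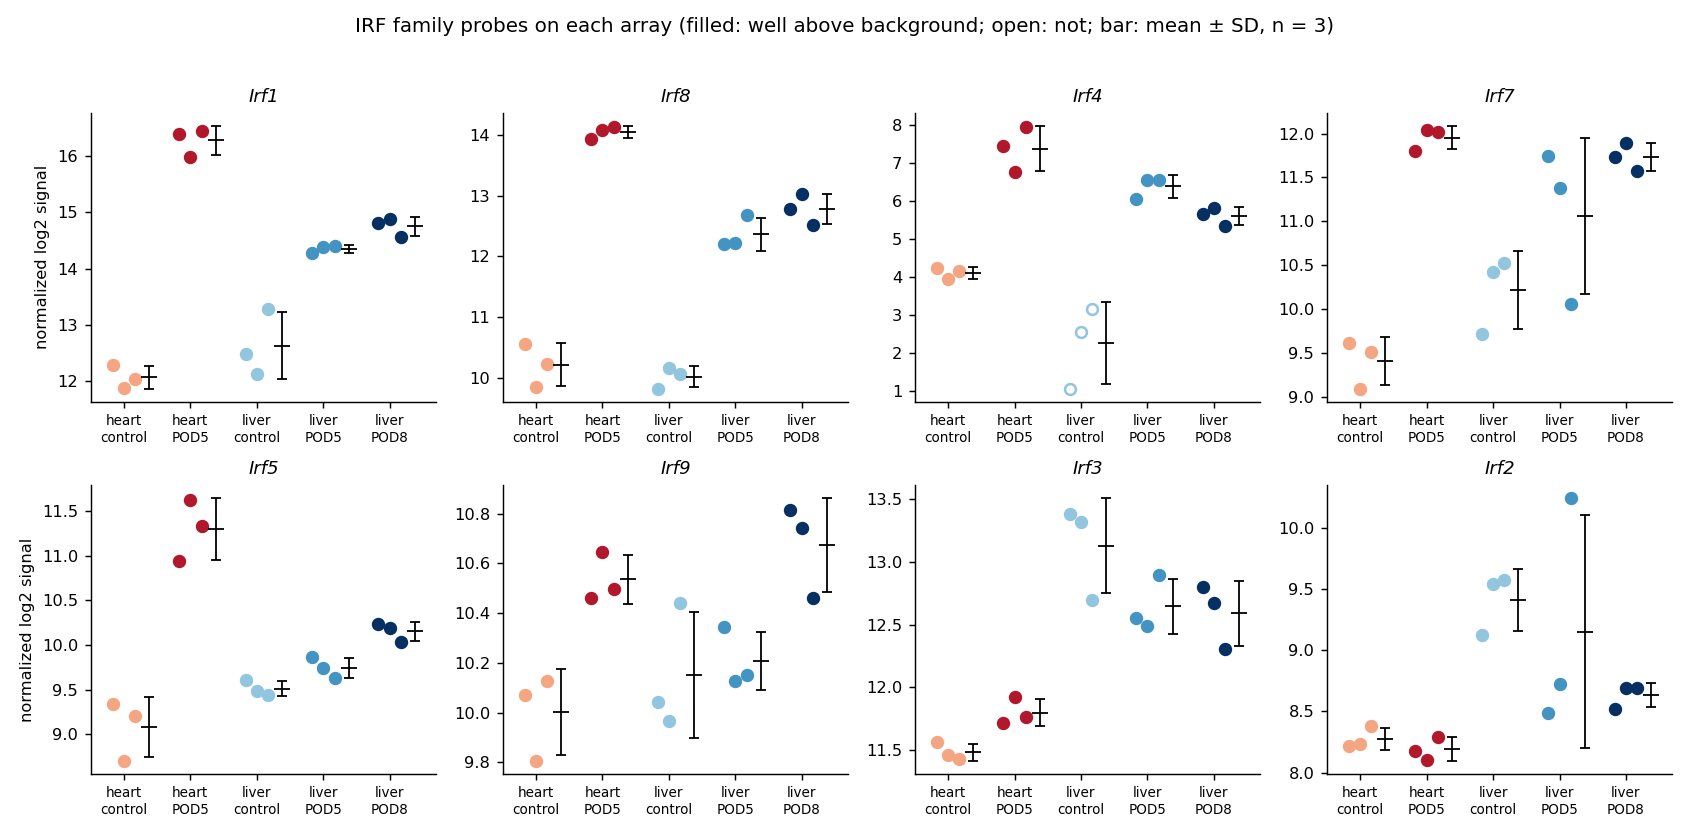
Normalized log2 signal of the brightest probe of each IRF gene (vertical axes, each panel with its own range) on the 15 arrays by group, with points for single arrays and bars for the mean ± SD of 3 arrays. Irf1 lies at 15.99 to 16.45 in heart allografts and at 11.89 to 12.29 in heart controls, and the open Irf4 points in liver controls were not well above background.

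Irf1, the activator induced by interferon gamma, read 12.29, 11.89 and 12.04 on the log2 scale in the heart controls and 16.40, 15.99 and 16.45 in the heart allografts. Every allograft lay far above every control, with a log2 difference of 4.21 ± 0.18 (SE, n = 3 against 3, limma adjusted p = 0.000515). Its dimmer probe gave a log2 difference of 5.0 ± 0.10 (adjusted p = 0.000185).

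Irf8, a factor of the monocyte, dendritic cell and B cell lineages that macrophages raise under interferon gamma, read 10.56, 9.85 and 10.23 in heart controls and 13.93, 14.08 and 14.12 in heart allografts. The groups were far apart and the allografts spread less than the controls. The log2 difference was 3.83 ± 0.20 (adjusted p = 0.000675), and the dimmer probe gave 4.32 ± 0.19 (adjusted p = 0.000545).

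Irf4, which antigen receptor signalling induces in lymphocytes, read 4.24, 3.95 and 4.18 in heart controls and 7.44, 6.77 and 7.95 in heart allografts, well above background on all 6 arrays. The allografts spread over more than 1 log2 unit and still lay above every control. The log2 difference was 3.26 ± 0.31, a 9.59-fold rise (adjusted p = 0.00223). With normexp background correction the log2 difference of this dim probe was smaller, at 1.66 (adjusted p = 0.00406).

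Irf7, the interferon-induced factor for type I interferon genes, read 9.61, 9.09 and 9.51 in heart controls and 11.80, 12.04 and 12.02 in heart allografts. The 2.55 ± 0.17 log2 difference amounted to 5.85-fold (adjusted p = 0.00102). Irf5, which acts below MyD88-dependent receptors in myeloid cells, read 9.34, 8.70 and 9.20 in heart controls and 10.94, 11.63 and 11.34 in heart allografts. It rose by a log2 difference of 2.22 ± 0.25, or 4.66-fold (adjusted p = 0.00334). For both genes the lowest allograft stood above the highest control by over 1 log2 unit.

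Irf9, Irf3 and Irf2 differed least. Irf9, the DNA-binding subunit of ISGF3, read 10.07, 9.81 and 10.13 in heart controls and 10.46, 10.65 and 10.497 in heart allografts, a small rise with no overlap. Its log2 difference was 0.53 ± 0.12 (adjusted p = 0.0256) and that of its dimmer probe 0.63 ± 0.13 (adjusted p = 0.0166), while with 75th percentile scaling the brighter probe gave 0.51 with an adjusted p of 0.0819.

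Irf3, the constitutive factor activated by TBK1, read 11.56, 11.46 and 11.43 in heart controls and 11.71, 11.92 and 11.76 in heart allografts. The groups did not overlap, but the log2 difference of 0.31 (95% interval 0.07 to 0.56, adjusted p = 0.0594) did not pass the test. With normexp background correction it was 0.53 and passed (adjusted p = 0.0047), which made 7 of 8 genes called, beside 29.8% of all probes. Irf2 read 8.21, 8.23 and 8.38 in controls and 8.18, 8.11 and 8.29 in allografts. These groups overlapped, and the log2 difference was -0.08 (95% interval -0.33 to 0.16, adjusted p = 0.566).

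Leaving out any 1 of the 6 heart arrays kept Irf1, Irf4, Irf5, Irf7 and Irf8 called, with log2 differences of Irf1 between 4.13 and 4.35. The call of Irf9 was lost without heart allograft 3 or without any 1 of the heart controls (adjusted p 0.0544 to 0.0703). In these fits 18.4% to 22% of all probes were called, against 32% with all 6 arrays.

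In the liver at POD5, 2 of 8 IRF genes rose, Irf4 and Irf8, and none fell. The background was 3.16% of 41155 probes called, 2.38% called higher and 0.778% called lower. By its brighter probe Irf1 was higher on every allograft array but missed the threshold in this fit. The median log2 difference of the 8 genes was 0.54, against -0.07 over all probes, and the groups did not overlap for 4 of 8 genes, each higher (over all probes, 31.2% did not overlap, 12.4% higher and 18.8% lower).

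Irf4 read 1.07, 2.57 and 3.16 in liver controls, none of them well above background, and 6.05, 6.56 and 6.57 in liver POD5 allografts. The allografts were measured on all 3 arrays, so the ratio has only a lower bound. Set against the lowest signal that counted as well above background on each control array, or the probe's own where that was higher, Irf4 was at least 4.17-fold higher. This bound applies to the deposited background subtraction only. The limma adjusted p of 0.032 belongs to the measured log2 difference of 4.12 and not to the bound.

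Irf8 read 9.82, 10.16 and 10.06 in liver controls and 12.20, 12.21 and 12.68 in POD5 allografts. It rose by a log2 difference of 2.35 ± 0.20, or 5.10-fold (adjusted p = 0.0109), with no overlap. Its dimmer probe read 5.81, 7.72 and 8.09 in controls and 10.24, 10.07 and 9.62 in allografts, without overlap, but the spread of the controls left its log2 difference of 2.77 ± 0.64 at an adjusted p of 0.091.

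Irf1 read 12.49, 12.13 and 13.28 in liver controls and 14.27, 14.39 and 14.40 in POD5 allografts. The allografts were tightly grouped and liver control 3 stood above the other controls. The log2 difference was 1.72 (95% interval 0.93 to 2.51, adjusted p = 0.058), and without liver control 3 it was 2.04 with an adjusted p of 0.0337. The same difference passed the test in 1 fit of all 5 groups (adjusted p = 0.000856), with probes limited to those well above background (0.0211), with normexp background correction (0.0314) and with a trended and robust prior (0.0467), and 3 IRF genes were called under each of these. The dimmer probe of Irf1 gave a log2 difference of 1.69 ± 0.61 that did not pass the test (limma adjusted p = 0.21). On that probe the groups overlapped, with allograft 3 at 8.65 and liver control 3 at 8.82.

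Irf7 read 9.71, 10.43 and 10.52 in liver controls and 11.74, 11.38 and 10.05 in POD5 allografts. Allograft 3 lay among the controls and the other POD5 allografts lay above them all. The log2 difference was 0.84 (95% interval -0.43 to 2.11, adjusted p = 0.405), and 1.34 without allograft 3. In the same array Irf2 read 10.24, against 8.49 and 8.72 in the other POD5 allografts and 9.12, 9.54 and 9.57 in controls. The difference of Irf2 was -0.26 (95% interval -1.52 to 1.0), and -0.80 without that array, neither passing the test. Liver POD5 allograft 3 was the array that shared a slide with the heart allografts, and the part of the slide in these values was not tested.

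The remaining members differed little at POD5. Irf5 read 9.60, 9.48 and 9.44 in liver controls and 9.86, 9.74 and 9.63 in allografts, without overlap but with a log2 difference of only 0.24 (95% interval -0.09 to 0.57, adjusted p = 0.363). Irf9 differed by 0.06 (95% interval -0.39 to 0.50) and Irf3 by -0.49 (95% interval -1.10 to 0.13), and the groups overlapped for both.

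The POD5 calls in the liver rested on few arrays, for IRF genes as over all probes. Without POD5 allograft 1 and 2, 0.194% and 0.068% of all probes were called, against 3.16% with all arrays. Irf8 lost its call without POD5 allograft 1 or 2 (adjusted p 0.0586 and 0.0669) and Irf4 without any 1 of the POD5 allografts or without liver control 2 (adjusted p 0.089 to 0.125), in each case with a log2 difference of 2.43 or more. With slide as a random block the call of Irf4 was lost (adjusted p = 0.0618) and Irf8 stayed called (adjusted p = 0.0189), beside 1.39% of all probes. No slide held both liver POD5 allografts and liver controls, so this block cannot separate slide from group. The measured log2 difference of Irf4 was 4.12, and 1.25 with normexp background correction (adjusted p = 0.00675).

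In the liver at POD8, 5 of 8 IRF genes rose, namely Irf8, Irf1, Irf7, Irf4 and Irf5, and none fell at the threshold. Over 41157 probes, 4.97% were called, 3.53% higher and 1.44% lower. The median log2 difference of the members was 1.08, against -0.08 over all probes. Groups did not overlap for 7 of 8 genes, 6 of them higher and Irf2 lower, beside 31.4% of all probes, 12.9% higher and 18.6% lower. The same liver control arrays served both days, so the POD5 and POD8 differences are not independent of each other.

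Irf8 read 12.78, 13.02 and 12.52 in POD8 allografts, all above the controls given for POD5 (at most 10.16). Its log2 difference of 2.76 ± 0.18, or 6.78-fold (adjusted p = 0.00346), was called without any 1 of the 6 arrays. The dimmer probe gave 3.26 ± 0.63 (adjusted p = 0.0537). Irf1 read 14.82, 14.88 and 14.57, a 4.35-fold rise with a log2 difference of 2.12 ± 0.32 (adjusted p = 0.0317), and its dimmer probe gave 2.62 ± 0.59 (adjusted p = 0.0761).

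Irf7 read 11.74, 11.89 and 11.57 in POD8 allografts, now with no array among the controls. The log2 difference was 1.51 ± 0.25, or 2.86-fold (adjusted p = 0.0394). Irf4 read 5.66, 5.81 and 5.34 and was at least 2.42-fold higher than in the controls, where it was not well above background. That bound applies to the deposited background subtraction only, and the limma adjusted p of 0.0393 belongs to the measured difference. Irf5 read 10.24, 10.19 and 10.03, a small rise of 0.64 ± 0.11 on the log2 scale, or 1.56-fold (adjusted p = 0.0447). Irf5 lay at the threshold, with adjusted p-values of 0.0501 to 0.0783 under 75th percentile scaling, 1 fit of 5 groups, the filter on dim probes and the trended prior. The measured log2 difference of Irf4 was 3.34, and 0.80 with normexp background correction (adjusted p = 0.0104).

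Irf2 read 8.52, 8.69 and 8.69 in POD8 allografts, below every liver control. The log2 difference was -0.78 (95% interval -1.19 to -0.36, adjusted p = 0.0655) and did not pass the test, which it did with 75th percentile scaling (-0.82, adjusted p = 0.0346) and without liver control 1 (-0.92, adjusted p = 0.0245). Irf9 read 10.82, 10.74 and 10.46, above the 10.04, 9.97 and 10.44 of the controls by a narrow margin, with a log2 difference of 0.52 (95% interval 0.06 to 0.99, adjusted p = 0.183). Irf3 read 12.80, 12.67 and 12.30 against 13.38, 13.32 and 12.70 in controls, with overlap and a log2 difference of -0.54 (95% interval -1.16 to 0.08, adjusted p = 0.283).

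The POD8 count fell to 1 gene, Irf8, when any 1 of the POD8 allografts or liver control 2 was left out. Over all probes the share called then fell from 4.97% to between 0.743% and 3.33%. POD8 allografts 1 and 2 and liver controls 1 and 2 shared a slide. With slide as a block the log2 differences were 2.91 for Irf8, 2.54 for Irf1 and 1.75 for Irf7. None passed the test (limma adjusted p 0.0658, 0.0681 and 0.126), and that block called 0% of all probes.

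**Figure D2:**
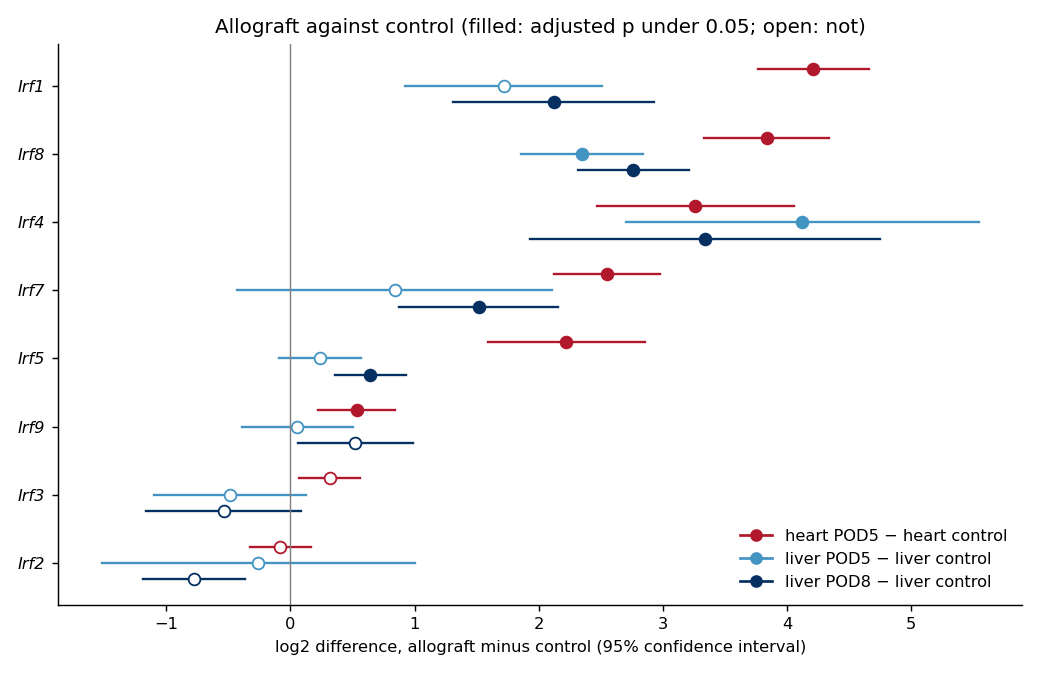
Log2 difference of allograft minus control (horizontal axis) for the brightest probe of each IRF gene, with 95% confidence intervals, in the heart at POD5 and in liver grafts of POD5 and POD8, with 3 arrays a group. The heart value lies to the right of both liver values for every gene but Irf4, by little for Irf9 (0.53 against 0.52 at POD8). The liver values of Irf4 are measured differences against controls that were not well above background.

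Between POD8 and POD5 liver allografts no IRF gene was called, nor was any of 41165 probes (0%), while 4 of the 8 genes and 5299 of all probes had an unadjusted limma p under 0.05. The methods' t-test and the standardized fold change (SFC) of the study also called 0 IRF genes. The POD8 and POD5 arrays did not overlap for 4 of 8 genes, 3 higher and 1 lower, beside 19.7% of all probes, 9.29% higher and 10.4% lower. Irf1, Irf5 and Irf9 were higher at POD8 by log2 differences of 0.40 (95% interval 0.10 to 0.70), 0.41 (0.13 to 0.68) and 0.47 (0.12 to 0.81). Irf4 was lower at POD8, with a log2 difference of -0.78 (95% interval -1.30 to -0.27, adjusted p = 0.278).

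Whether the heart and liver differences at POD5 differed from each other was tested directly. The difference was larger in the heart for Irf1, Irf5 and Irf8, 3 of 8 genes, against a background of 13.7% of 41006 probes called, 6.41% in that direction and 7.26% in the other. The heart difference exceeded the liver difference by 2.49 ± 0.38 for Irf1 (adjusted p = 0.00439), by 1.98 ± 0.30 for Irf5 (adjusted p = 0.00401) and by 1.48 ± 0.29 for Irf8 (adjusted p = 0.0117) on the log2 scale. The dimmer Irf1 probe gave 3.30 ± 0.65 (adjusted p = 0.0119) and the dimmer Irf8 probe 1.55 ± 0.70 (adjusted p = 0.167).

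Irf7 had a larger log2 difference in the heart by 1.71 (95% interval 0.46 to 2.96, adjusted p = 0.0715), and Irf3 by 0.80 (0.19 to 1.41, adjusted p = 0.0821). Neither passed the test. Irf3 did so with 75th percentile scaling (1.15, adjusted p = 0.047), with normexp (0.90, adjusted p = 0.0188) and without liver control 3 (1.01, adjusted p = 0.0142). Irf7 did so with 75th percentile scaling, in 1 fit of 5 groups, with the filter on dim probes and without liver POD5 allograft 1 (adjusted p 0.0275 to 0.0486). Irf4 was the member whose difference was smaller in the heart, by -0.86 (95% interval -2.38 to 0.65, adjusted p = 0.421), a value that rests on liver controls not well above background and turned to 0.40 with normexp background correction. The intervals for Irf9 (-0.03 to 0.98) and Irf2 (-1.02 to 1.38) included 0.

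**Figure D3:**
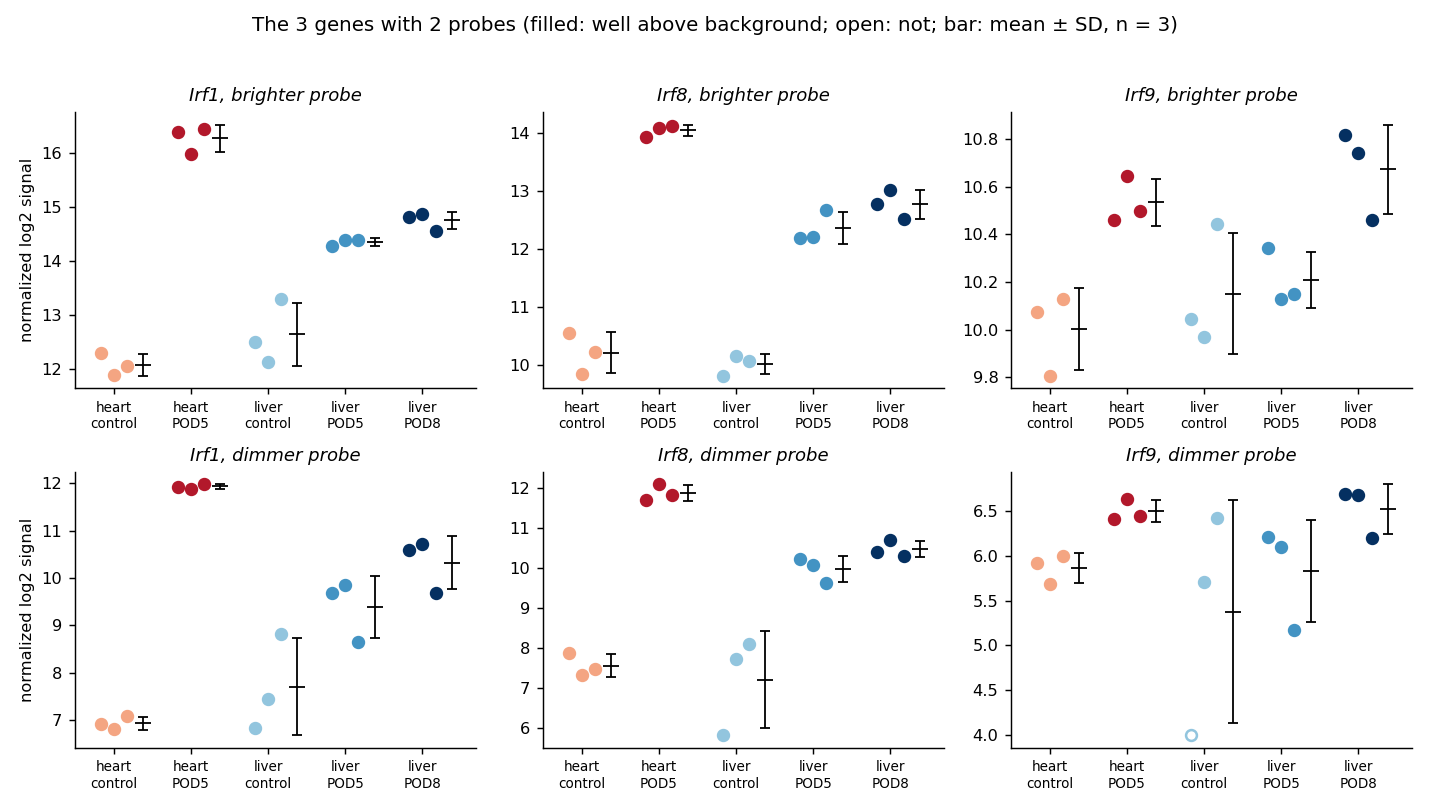
Normalized log2 signal (vertical axes, each panel with its own range) of the brighter and the dimmer probe of Irf1, Irf8 and Irf9 on the 15 arrays by group, with bars for the mean ± SD of 3 arrays. In the heart both probes of each gene separate allografts from controls, and in liver controls the dimmer probes spread more widely, from 6.83 to 8.82 for Irf1 and from 5.81 to 8.09 for Irf8.

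In the controls, Irf2 and Irf3 were called lower in the heart than in the liver and Irf4 was called higher. These were 3 of 8 genes, beside 48.2% of 41023 probes called, 25.5% higher and 22.7% lower. The groups did not overlap for 5 of 8 genes, 1 higher and 4 lower in the heart, beside 66.4% of all probes, 30.7% higher and 35.7% lower. Irf3 was 3.13-fold lower in heart controls (log2 difference -1.65 ± 0.21, adjusted p = 0.0021) and Irf2 was 2.20-fold lower (-1.14 ± 0.16, adjusted p = 0.00296). Irf4 was well above background on the 3 heart controls and on none of the liver controls, with a measured log2 difference of 1.85 ± 0.55 (adjusted p = 0.0388) that allows no bound on the fold. The lowest signal so marked was 2.37 to 2.61 on heart controls and 4.09 to 4.56 on liver controls. The marks alone therefore do not establish a difference in level. The measured Irf4 difference was 0.97 with 75th percentile scaling and 0.25 with normexp background correction. The call of Irf4 was lost with slide as a random block (adjusted p = 0.0971), with the methods' t-test (0.082), and without any 1 of the heart controls or liver control 2 (0.0746 to 0.108). With 75th percentile scaling, which put the median log2 difference of all probes at -0.81 here against -0.065 with quantile normalization, Irf1 and Irf7 were called lower in the heart as well. Irf8 (0.20) and Irf9 (-0.15) showed log2 differences within 95% intervals that included 0.

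Set in order over the 5 groups in 1 fit, 8 of the 32 steps between neighbouring group means differed, and 12 did with 75th percentile scaling and 10 with normexp background correction. For Irf1, Irf4, Irf5, Irf7 and Irf8 the heart POD5 allografts had the highest mean. The top step was past the threshold for Irf1 (16.28 over 14.75 in liver POD8 allografts, adjusted p = 0.000386), Irf8 (14.05 over 12.77, adjusted p = 0.000347) and Irf5 (11.30 over 10.15, adjusted p = 0.000476). It was not for Irf7 (11.95 over 11.73, adjusted p = 0.71) or Irf4 (7.38 over 6.39 in liver POD5 allografts, adjusted p = 0.11).

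For Irf1 the order was heart control, liver control, liver POD5, liver POD8 and heart POD5, and the liver control and liver POD5 means also differed (adjusted p = 0.000856). For Irf8 the liver controls (10.01) and heart controls (10.21) did not differ beyond their spread, and the step to liver POD5 allografts (12.36) did (adjusted p = 2.94e-06). For Irf4 the liver controls (2.27), heart controls (4.12) and liver POD8 allografts (5.61) were separate steps (adjusted p 0.00356 and 0.0163). The liver control values of Irf4 were not well above background. The lowest signal that was so marked on those arrays was 4.09 to 4.56, a range that overlaps the 3.95 to 4.24 of Irf4 in heart controls. The first step alone therefore does not establish a difference in level.

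Irf3 and Irf2 ran in another order, with liver controls highest. For Irf3 the heart control (11.48) and heart allograft (11.80) means lay below the liver means (12.59 to 13.13), and only the step between heart allografts and liver POD8 allografts differed (adjusted p = 0.00703). No neighbouring step differed for Irf2, Irf7 or Irf9. Irf9 had the narrowest range of means, from 10.00 in heart controls to 10.67 in liver POD8 allografts.

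Genes with the most similar profile were sought among 14921 named genes, by the mean absolute difference of centred log2 signals over the 15 arrays, in which the 5 groups account for much of any shared pattern. The nearest to Irf1 were the immunity-related GTPases Irgm1 (0.23) and Irgm2 (0.25), then Irf8 itself (0.29). The mean absolute deviation of Irf1 from its own mean was 1.33. Among the 3 nearest to Irf8 were the class II chaperone chain H2-DMb1 (0.24) and the cytotoxic lymphocyte receptor Cd160 (0.27), against an own deviation of 1.42.

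Irf4 lay nearest to the lymphocyte genes Ms4a4b (0.31), Ptpn22 (0.33) and Klrd1 (0.38). Among the 3 nearest to Irf7 were Ube2l6 (0.24), the E2 enzyme for ISG15, and Usp18 (0.31), the protease that removes ISG15. Irf5 lay nearest to Arrdc1 (0.17), Lacc1 (0.18) and Myd88 (0.22), the adaptor of Toll-like receptors. The members that changed least had close neighbours of small amplitude, with Fdxr, Wdr24 and Mul1 (0.12 to 0.13) for Irf3, Ufm1, Mon1b and Cln8 (0.13 to 0.14) for Irf9 and Olfr780, Rnf111 and Fubp3 (0.18 to 0.21) for Irf2, whose own deviations were 0.56, 0.25 and 0.47.

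Among interferon ligands and receptors, 11 genes were measured, and 2 rose and 2 fell in the heart, 2 rose in liver POD5 grafts and 1 rose in POD8 grafts. Ifng, which T and NK cells secrete, rose in each comparison. Its log2 differences were 10.56 ± 0.39 in the heart (adjusted p = 0.000432), 5.79 ± 0.47 in liver POD5 grafts (adjusted p = 0.0103) and 6.19 ± 0.37 in POD8 grafts (adjusted p = 0.00299), with 1 of the 3 liver controls not well above background. Of its receptor chains, Ifngr2 fell in the heart by 0.70 and Ifngr1 rose in the liver at POD5 by 1.03.

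Of 12 JAK-STAT genes and inhibitors, 8 rose in the heart and 4 in the liver on each day, and none fell. Socs1, the feedback inhibitor of interferon gamma signalling, rose by log2 differences of 5.82 in the heart, 4.05 in liver POD5 grafts and 4.33 in POD8 grafts. Stat4, which carries interleukin 12 signals, rose by 4.49 and 4.25 in the liver, where it was well above background on 1 of 3 control arrays. Stat2, the partner of IRF9 in ISGF3 and named here after its values were seen, rose by 2.68 in the heart (adjusted p = 0.00244) and differed by 0.02 and 0.37 in liver grafts of POD5 and POD8 (adjusted p = 0.98 and 0.398).

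Of 20 measured sensors and adaptors upstream of IRF3, IRF5 and IRF7, 10 rose and 3 fell in the heart, 2 rose in liver POD5 grafts and 4 rose in POD8 grafts. Zbp1, a nucleic acid sensor, rose by 3.79 in the heart and 2.39 in the liver at POD8. Sting1, the adaptor of cytosolic DNA sensing, rose by 1.88 and 2.24 in liver grafts of POD5 and POD8, and Dhx58, an RNA helicase, by 2.76 in the heart and 1.09 in the liver at POD5. Of 20 measured IRF partners and regulators, 11 rose and 2 fell in the heart, 3 rose in liver POD5 grafts and 5 rose in POD8 grafts. AP-1 factors of the BATF family pair with IRFs. The largest called differences of this list were those of Batf2 (5.97) and Batf3 (3.68) in the heart, Batf (3.16) and Batf2 (2.42) in liver POD5 grafts, and Prdm1 (a measured 3.66) and Batf2 (3.20) in POD8 grafts. Prdm1, a target of IRF4, was at least 7.35-fold higher at POD8 than in liver controls, where it was not well above background.

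Of 25 measured interferon gamma and IRF1 target genes, 24 rose in the heart, 15 in liver POD5 grafts and 17 in POD8 grafts, and none fell. Their median log2 differences were 4.01, 2.49 and 2.55. Cxcl9, a chemokine for activated T cells, rose by 7.13 in the heart, 5.92 in liver POD5 grafts and 5.31 in POD8 grafts, Ido1 by 6.75 in the heart and Gbp2 by 4.67 in the liver at POD8. Of 18 measured interferon-stimulated antiviral genes, 14 rose in the heart, 3 in liver POD5 grafts and 10 in POD8 grafts, with medians of 1.65, 1.34 and 1.47. Ifit2 rose by 3.29 in the heart and by 3.13 in the liver at POD8, Oas3 by 2.46 in the heart, Ifi44 by 2.21 and Cmpk2 by 1.79 in the liver at POD5, and Oasl2 by 2.74 at POD8. The number of members called in each list is read beside the shares of all probes called higher, 15.6%, 2.38% and 3.53% in the 3 comparisons. The shares of all probes called lower were 16.4%, 0.778% and 1.44%.

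**Figure D4:**
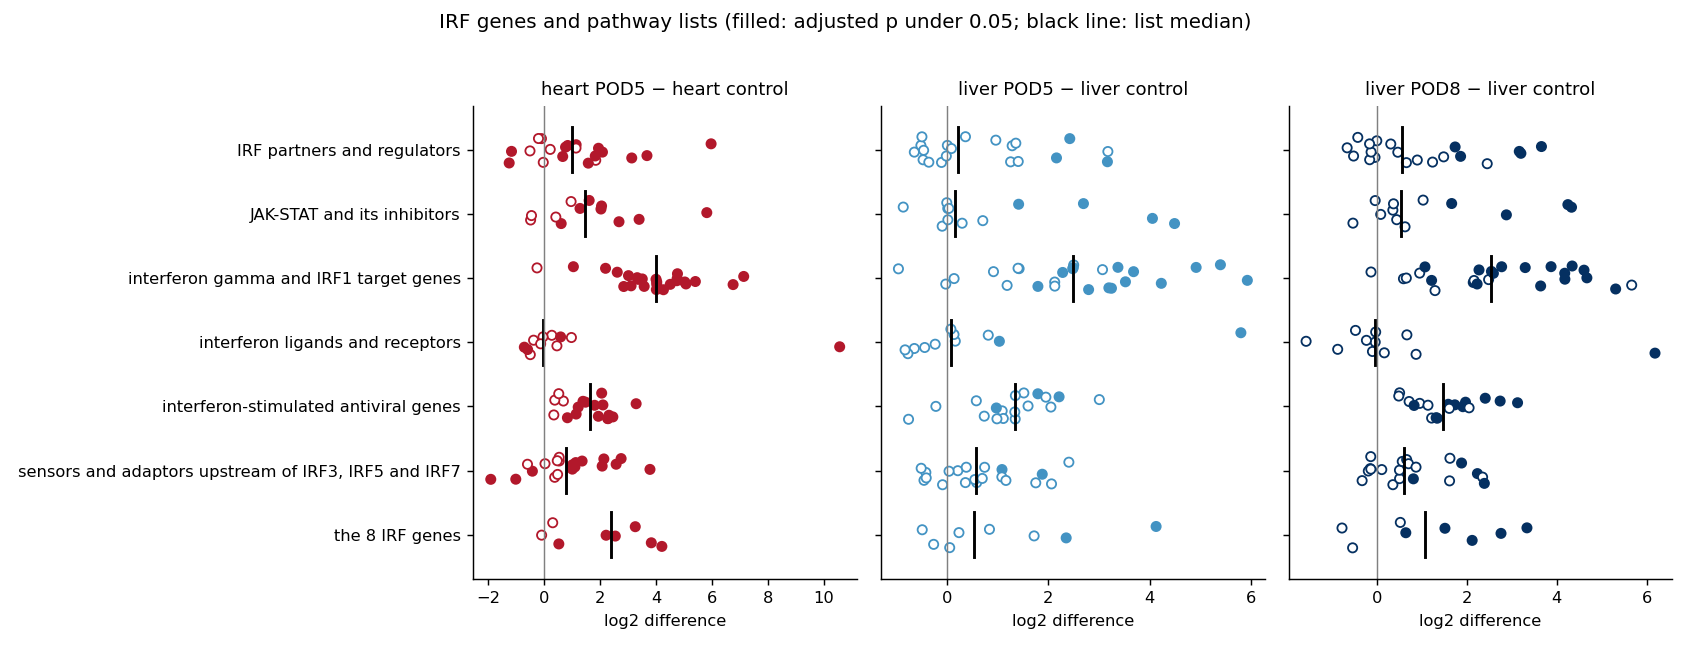
Log2 difference of allograft minus control (horizontal axes) for the genes of 6 pathway lists and for the 8 IRF genes in 3 comparisons, with filled points called at an adjusted p under 0.05 and a black line at each list's median. The medians of the interferon gamma and IRF1 target genes (4.01, 2.49 and 2.55) lie to the right of those of the 8 IRF genes (2.38, 0.54 and 1.08).

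T cell markers rose in the comparisons in which IRF genes rose. Of 9 measured T cell markers, 9 rose in the heart and 7 in the liver on each day, and their summed normalized signal went from 519 to 746 in heart controls to 12230 to 19000 in heart allografts. In the liver it was 515.9 to 617.8 in controls, 8272 to 13750 at POD5 and 7200 to 9142 at POD8. Cd8a and Cd247 were not well above background on any liver control. Cd8a was higher by 6.02 on the log2 scale in the heart and at least 104-fold higher in the liver at POD5.

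Of 9 macrophage and monocyte markers, 2 rose in each comparison, beside the 15.6%, 2.38% and 3.53% of all probes called higher. Their median log2 difference was 0.12 in the heart, 1.68 in liver POD5 grafts and 2.15 in POD8 grafts. Ly6c2, the brightest of them in the heart, rose by 1.71 there, from a mean of 15.07 to 16.78, and by 2.88 and 2.84 in liver grafts, while Adgre1 (-0.33) and Cd14 (-1.27) had values below 0 in the heart and did not pass the test. Their summed signal was 63870 to 85320 in heart controls and 148900 to 182200 in heart allografts, and 7908 to 15920 in liver controls, 41550 to 46190 at POD5 and 46790 to 51250 at POD8. Of 9 dendritic cell markers, 3 rose and 2 fell in the heart, 1 rose in liver POD5 grafts and 2 rose in POD8 grafts, with medians of 0.31, 0.30 and 0.41. Itgax rose by 3.47 and 3.98 in the liver and Xcr1 by 2.19 in the heart, while Cd209a was at least 3.50-fold lower in heart allografts. Their summed signal was 792.3 to 1140 in heart controls, 1737 to 3527 in heart allografts, 1412 to 1769 in liver controls and 2705 to 3425 in liver allografts. Of 10 B cell and plasma cell markers limma called 0 in each of the 3 comparisons, with 2 in the heart, 1 in liver POD5 grafts and 4 in POD8 grafts at an unadjusted p under 0.05, and Pax5 was not well above background on any liver array. Their summed signal was 3110 to 4874 in the heart arrays and 10110 to 15400 in the liver arrays. Of the cardiomyocyte markers, 3 of 10 fell in the heart, among them Ryr2 by 1.53 and Tnni3 by 0.98, beside 16.4% of all probes called lower. Of 8 hepatocyte markers limma called 0 in the liver on either day, with 1 at an unadjusted p under 0.05 on each. The part of these cell types in the IRF values was not tested.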

How the data were processed

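RNA from 3 samples in each of 5 groups was labelled with Cy3 and hybridised to single-colour arrays. Per the file headers the arrays were read with Agilent Feature Extraction 10.5.1.1 (protocol GE1_105_Dec08). The authors deposited a processed intensity for each spot, background-subtracted on the linear scale and not normalized between arrays. The methods name 3 mice per time point in their passage on qRT-PCR, and whether the arrays of a group came from separate animals is not stated for the arrays themselves. If they did not, the p-values measure only the spread between these samples, which may be technical.

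Outlier spots, 47 to 113 on each array, were dropped, and 0 spots were saturated. Then log2 was taken of the deposited intensity, spots of a probe were averaged, and all 15 arrays were quantile normalized. The software marks spots well above background, and a probe was taken as such where 0.5 or more of its spots on the array carried the mark. Gene symbols came from RefSeq transcript accessions (GRCm38.p6, names only) that equal a probe's systematic name, for 26690 of 41174 probes (64.8%). The brightest probe stood for its gene, and the other probes are given beside it.

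Each comparison was fitted on its own arrays with the R package limma (version 3.58.1 under R 4.3.3; tables were read by data.table, version 1.17.8), with Benjamini-Hochberg adjustment over all probes and a call at an adjusted p under 0.05. The difference between heart and liver was an interaction contrast over 4 groups, and the order of levels came from 1 fit of 5 groups. An exact permutation test of 3 against 3 arrays cannot give a two-sided p below 0.1 and was not used. A bound on a fold was set against, per array, the higher of the probe's own signal and the lowest signal well above background. Such bounds apply to the deposited background subtraction only. SFC followed the study's equation with a bin of 1000. Python 3.11.15 with matplotlib 3.10.9 drew the figures. The fits were tested on simulated data.

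Named genes were every IRF probe, the 2 genes with the largest difference among those called in each pathway or marker list and comparison, and the 3 genes nearest to each IRF gene in profile. Some genes that this rule names are not reported here. Lists were JAK-STAT, interferon ligands and receptors, sensors, IRF partners, antiviral genes, interferon gamma and IRF1 targets, and markers of T cells, B cells, macrophages, dendritic cells, cardiomyocytes and hepatocytes. The members and lists were chosen with earlier results of these data known. Alternatives tried were 75th percentile scaling, quantile normalization per organ or comparison, normexp background correction, 1 fit of all groups, a filter on dim probes, outlier spots kept, a trended robust prior, replicate and slide blocks, Bonferroni adjustment, the methods' t-test, SFC, the mean of all probes of a gene and leaving out each array.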

Additional observations from a re-analysis of the deposited data

Results flagged for a closer look

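The heart and liver differences from control at POD5 differed from each other for 3 IRF genes in the interaction contrast (limma, Benjamini-Hochberg over all probes). The heart difference was larger by 2.49 on the log2 scale for Irf1 (adjusted p = 0.00439), by 1.98 for Irf5 (adjusted p = 0.00401) and by 1.48 for Irf8 (adjusted p = 0.0117). When each of the 12 arrays was left out in turn, all 3 genes stayed called, at 2.15 to 2.72 for Irf1, 1.79 to 2.17 for Irf5 and 1.31 to 1.67 for Irf8. With slide as a random block the adjusted p-values were 0.012, 0.0165 and 0.0466. In neither organ did a slide hold both POD5 allografts and controls of that organ, so this block cannot separate slide from group. Liver POD5 allograft 3 shared a slide with the heart allografts, the strains differed between the organs, and the summed T cell marker signal was 12230 to 19000 in heart allografts and 8272 to 13750 in liver POD5 allografts. The median log2 difference of the T cell markers from control was 4.17 in the heart and 4.84 in the liver at POD5. The part of these in the difference was not tested or, for strain and slide, cannot be told apart.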

How the results depend on the processing

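The counts of IRF genes called were 6 for heart POD5, 2 for liver POD5, 5 for liver POD8, 0 for POD8 against POD5, 3 for heart against liver controls and 3 for the heart-liver difference. Over all probes the shares called were 32%, 3.16%, 4.97%, 0%, 48.2% and 13.7%, in that order. Limma with Bonferroni adjustment and the methods' t-test with Bonferroni adjustment called 0 in each comparison they were run for. They called 0% to 2.78% of all probes. The methods' t-test with Benjamini-Hochberg adjustment called 1 for liver POD5 and 1 for POD8, beside 0.561% and 1.98% of all probes. SFC with Bonferroni adjustment called 2 in the heart (Irf1 and Irf8), 1 for liver POD5 (Irf4), 2 for POD8 (Irf1 and Irf8) and 0 between controls. It called 0.59%, 0.841%, 0.867% and 1.45% of all probes in these comparisons. Normexp called 7 in the heart (Irf3 as well), beside 29.8% of all probes. For liver POD5, normexp, 1 fit of all groups, the dim-probe filter and the trended prior each called 3. Their shares of all probes called were 4.57%, 15.1%, 9.28% and 2.97%. With 75th percentile scaling 5 genes were called between controls and 5 for the heart-liver difference, beside 69.2% and 38.3% of all probes. That scaling put the median log2 difference of all probes at 0.47 in the heart (0.017 with quantile normalization), -0.39 and -0.47 in the liver at POD5 and POD8 (-0.071 and -0.082), -0.14 for POD8 against POD5 (0.0017), and 0.65 in the heart-liver difference (0.079). The share of higher calls went from 48.7% to 74.1% in the heart, from 52.9% to 29.6% between controls, from 46.9% to 82.6% in the heart-liver difference and from 71% to 18% at POD8, where Irf2 was then called lower. Same-numbered samples did not deviate together (correlations -0.12 to 0.09), so the numbers were not taken as pairs. The replicate block gave 5 for heart POD5, beside 21.6% of all probes. It gave 0 for each liver comparison with controls, where it called 0% of all probes. Slide as a random block gave 1 for liver POD5 (Irf8), beside 1.39% of all probes. Slide as a fixed block gave 0 for POD8, where it called 0% of all probes. In the heart no slide block could be fitted, nor a fixed one for the heart-liver difference, and per-organ normalization does not apply between organs.

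Leaving out 1 array gave 5 to 6 calls for heart POD5, 0 to 3 for liver POD5 (0 without allograft 1 or 2, 1 without allograft 3 or control 2), 1 to 5 for POD8 (1 without any allograft or without control 2), 0 for POD8 against POD5, 2 to 4 between controls and 3 to 4 for the heart-liver difference. The share of all probes called moved too. It was 0.194% and 0.068% for liver POD5 without allograft 1 and 2, against 3.16% with all arrays. For POD8 it was 0.743% to 1.44% without any 1 allograft and 3.33% without control 2, against 4.97%. It was 18.4% to 42% for heart POD5 (32%), 36.8% to 52.2% between controls (48.2%) and 7.12% to 17.6% for the heart-liver difference (13.7%). Signs turned only for values not called in either setting. Leaving out 1 array spanned -0.036 to 0.20 for Irf9 and -0.80 to 0.071 for Irf2 at liver POD5, -0.16 to 0.090 for Irf3 and -0.85 to 0.031 for Irf2 at POD8 against POD5, and -0.15 to 0.72 for Irf2 in the heart-liver difference. Irf9 at liver POD5 was -0.039 with 75th percentile scaling, Irf3 at POD8 against POD5 was 0.12 with SFC, and Irf9 between controls was 0.028 with SFC and 0.17 as the mean of its probes. In the heart-liver difference Irf4 was 0.40 with normexp and Irf2 was -0.185 with slide as a random block. The cause was not tested in any of these. Low signal limits Irf4 in liver controls and the dimmer Irf9 probe.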
